A study of Oryza sativa with 12 samples.

Results

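The 11 protein-coding genes described here stood higher, in germinating rice embryos, with the uncoupler 2,4-dinitrophenol (DNP) in both sugar media. Under the incubation named AC in the labels, their mean log2 levels lay less than 0.25 above air or lay below it. The genes were picked from 24161 probe sets that each map to 1 gene, by 4 differences between condition means of log2 expression. GlcDNP minus Glc and MtlDNP minus Mtl each had to be at least 1, a doubling, and GlcAC minus Glc and MtlAC minus Mtl each had to be under 0.25. The 11 genes, each with 1 probe set, are 0.0455% of the mapped probe sets. These 4 differences chose the genes, so they are given as a description and are not tested. The SEs of the AC differences were 0.17 to 0.28 over the 11 genes. Their 95% intervals reached up to 0.64 with glucose and 0.86 with mannitol, so the cut-off of 0.25 describes means of 2 arrays only. A single gene of the 11, AGO2 (also OsAGO2, LOC4336991), has a usable symbol in the tables used here. The other 10 are named by their LOC identifiers and no role is given for them.

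Total RNA was measured in embryos of Oryza sativa cultivar Dongjin, taken from whole seeds and kept in the dark for 24 h at 28 °C, on 12 microarrays, 2 in each of 6 conditions. All media held 10 mM calcium chloride. GlcDNP embryos had 60 mM glucose and 0.08 mM DNP in air, MtlDNP embryos 60 mM mannitol and 0.08 mM DNP in air. GlcAC and MtlAC embryos had 60 mM glucose or 60 mM mannitol without DNP. The labels do not spell out AC, which is read here as the submerged incubation in 50 mL of medium flushed with nitrogen. Glc and Mtl embryos had the same sugars in air without DNP. About 150 to 200 embryos were pooled per incubation, so a value averages over all embryo tissues. Replicates are technical according to the study's design text. The p-values and SDs below therefore cover the spread between arrays and may leave out that between batches of embryos.

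Mitochondria use the proton gradient across their inner membrane to make ATP. DNP carries protons back across that membrane, so that respiration goes on with oxygen while less ATP is made. Without oxygen, respiration itself stops and cells depend on fermentation for ATP. Both treatments lower energy supply, but oxygen, respiratory electron flow and the presence of a foreign phenol differ between them. Argonaute proteins, the family of AGO2, bind small RNAs and use them to find and silence matching RNAs. In Arabidopsis AGO2 is known for its part in defence against viruses.

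The median log2 value per array ran from 3.23 to 3.31. The SD over probe sets was 1.64 to 1.67 on the DNP arrays, 1.77 on both GlcAC arrays, 1.67 and 1.68 on the MtlAC arrays and 1.81 to 1.86 on the air arrays, so the DNP and MtlAC arrays overlapped in spread and all of them lay below the air arrays. Of the embryo markers looked for, the oil body gene OLE18, LEA1, EM and OsVP1 were found. Their mean level per array was 7.31 to 7.44 with DNP, 6.49 to 6.99 under AC and 5.64 to 5.99 in air. Against air, limma called 3 of these 4 higher with DNP in each sugar, 1 higher in GlcAC and 3 higher in MtlAC. Of all probe sets, 4.67% were called higher in GlcDNP, 5.91% in MtlDNP, 2.01% in GlcAC and 3.56% in MtlAC. OsVP1 was not called, with differences of -0.08 in GlcDNP, 0.55 in MtlDNP, 0.02 in GlcAC and 0.70 in MtlAC. LEA1 and EM are also among the LEA and dehydrin genes counted below. The 6 endosperm markers averaged 2.85 to 3.16 with DNP, 2.47 to 3.31 under AC and 2.44 to 3.04 in air. Of these, GLUA-1 was called higher in GlcDNP and in GlcAC than in Glc, by 1.84 and 1.12, and GLB fell by 1.15 in MtlDNP and by 1.17 in MtlAC against Mtl. The 3 green shoot markers averaged 2.22 to 2.54 with DNP, 2.01 to 2.41 under AC and 1.84 to 2.51 in air, with no call. The root markers could not be used as a list, since RCC3 was not found and RSS1 matched 2 genes. The gene with RSS1 as its symbol had log2 differences from air, with glucose and with mannitol, of 1.91 and 1.86 for DNP and 0.72 and 1.17 for AC. For OsSUS2, which has RSS1 as a synonym, these differences were -2.37 and -2.56 for DNP and 0.12 and -0.31 for AC. The part that these marker levels have in the results below was not tested. In pooled tissue, more cells of a type and more RNA per cell cannot be told apart.

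AGO2 was the gene of the set with the largest smaller DNP difference, and it had almost the same DNP difference on either sugar. Its log2 expression was 4.44 and 4.00 in GlcDNP and 4.41 and 4.20 in MtlDNP, against 2.69 and 2.43 in GlcAC, 3.21 and 2.52 in MtlAC, 2.81 and 2.50 in Glc and 2.56 and 2.88 in Mtl. All 4 DNP arrays lay above the other 8, with a gap of 0.78 between the lowest DNP array and the highest other array, and the AC and air arrays overlapped in both sugars. GlcDNP minus Glc was 1.56 ± 0.27 (SE), a 2.95-fold level, and MtlDNP minus Mtl was 1.59 ± 0.27, a 3.00-fold level. GlcAC minus Glc was -0.10 (95% interval -0.69 to 0.49) and MtlAC minus Mtl was 0.15 (-0.45 to 0.74). Without DNP the mean level of AGO2 lay under the array medians in all 4 conditions, and with DNP above them. The files hold no detection calls, so it is not known whether the lower level is above background.

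LOC4326578 was the gene whose AC level also lay lowest relative to air. It stood at 8.18 and 8.24 in GlcDNP and at 8.30 and 8.65 in MtlDNP, against 5.86 and 6.12 in GlcAC, 5.75 and 6.22 in MtlAC, 6.75 and 7.15 in Glc and 6.38 and 6.49 in Mtl. The DNP arrays were the highest, the air arrays came next and the AC arrays were the lowest, with no overlap between these 3 sets of arrays. MtlDNP minus Mtl was 2.04 ± 0.22, a 4.11-fold level and the largest DNP difference among the 11 genes, while GlcDNP minus Glc was 1.26 ± 0.22. GlcAC minus Glc was -0.96 and MtlAC minus Mtl was -0.45.

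LOC4331617 was the other gene with a mean below air under AC in both sugars, by -0.42 with glucose and -0.09 with mannitol. Its values were 8.09 and 8.04 in GlcDNP and 8.46 and 8.26 in MtlDNP, against 6.19 and 6.38 in GlcAC, 6.99 and 7.29 in MtlAC, 6.74 and 6.66 in Glc and 7.31 and 7.14 in Mtl. With glucose the AC arrays lay under the air arrays, and with mannitol the AC and air arrays overlapped. The DNP differences were 1.36 ± 0.18 with glucose and 1.13 ± 0.18 with mannitol.

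LOC4336283 had, like LOC4326578, a larger DNP difference with mannitol, at 1.89 ± 0.19, than with glucose, at 1.30 ± 0.19. It stood at 7.47 and 7.26 in GlcDNP and 7.63 and 7.72 in MtlDNP, against 6.22 in both GlcAC arrays, 5.91 and 6.09 in MtlAC, 5.96 and 6.17 in Glc and 5.97 and 5.59 in Mtl. The gap between the lowest DNP array and the highest other array, 1.04, was the widest of the 11 genes. LOC4326784 had values of 6.27 and 6.14 in GlcDNP and 6.24 and 6.50 in MtlDNP, against 5.01 and 4.74 in GlcAC, 5.18 and 5.08 in MtlAC, 4.75 and 4.83 in Glc and 4.86 and 4.98 in Mtl. Its DNP differences were alike, 1.42 with glucose and 1.45 with mannitol. Its AC arrays overlapped the air arrays with glucose and lay just above them with mannitol.

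The remaining 6 genes had DNP differences of 1.01 to 1.41 and AC differences of -0.09 to 0.24. LOC4329444 lay between 5.08 and 5.32 on the DNP arrays and between 3.46 and 4.17 on the other 8. Its air arrays were far apart, at 3.46 and 4.17 in Glc and 3.59 and 4.15 in Mtl, an SD of 0.503 in Glc that is the highest of any gene of the set in any condition. LOC4337359 lay between 5.17 and 5.66 on the DNP arrays and between 4.02 and 4.34 on the others. LOC4343579 lay between 4.93 and 5.19 against 3.70 and 4.03. These ranges show the same order for each gene, with every DNP array above every other array. LOC4346566 lay between 4.75 and 4.88 with DNP against 3.64 and 4.01 on the others. LOC4329137, like AGO2 a gene with means under the array medians without DNP, lay between 4.03 and 4.28 with DNP and between 2.92 and 3.27 elsewhere. LOC4336904 had the narrowest gap, 0.47, with 5.10 to 5.56 on the DNP arrays and 3.93 to 4.63 on the others. The gap was at least 1 for 2 of the 11 genes. The rule used the differences between these arrays, so nothing is read from the gaps or from this count.

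**Figure D1:**
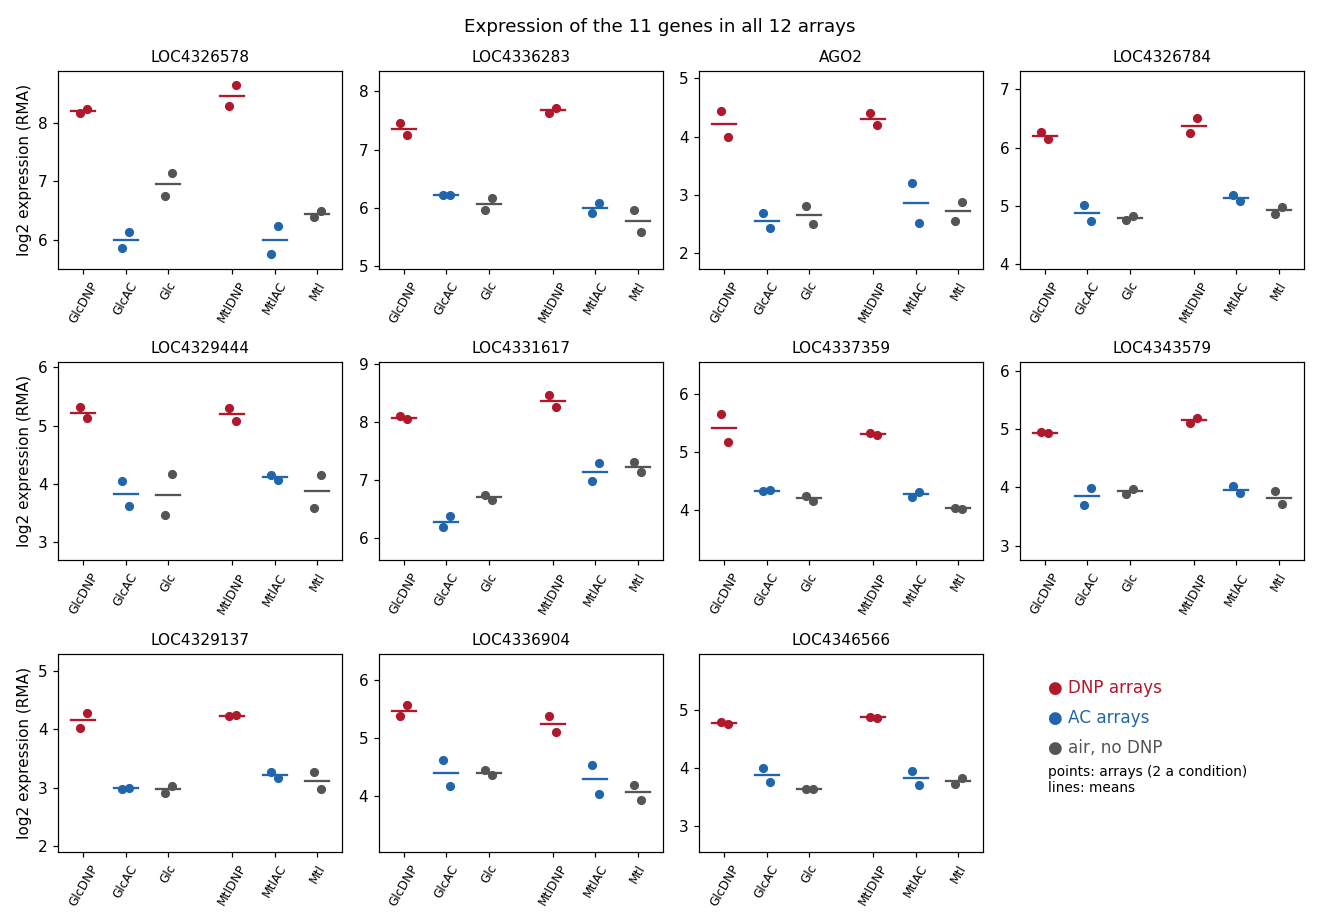
Log2 expression (RMA) of the 11 genes, 1 panel per gene with the same span of the vertical axis, by condition. Points are arrays, 2 per condition, and lines are their means. The 4 DNP arrays lie above the other 8 in every panel, as in 4.53% of all probe sets, and the AC and air arrays overlap in 14 of the 22 pairs of gene and sugar, against 40.8% of such pairs over all probe sets. The rule used these differences, so nothing is read from either count.

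Among the 11 genes the median DNP difference was 1.26 with glucose and 1.32 with mannitol, and the median AC difference was 0.02 with glucose and 0.15 with mannitol. Over all probe sets these medians were 0.10, 0.15, 0.03 and 0.10. The 2 DNP differences of a gene were within 0.25 of each other for 8 of the 11. With limma at an adjusted p under 0.05 and a log2 difference of at least 1, all 11 were called higher in GlcDNP than in Glc, where 4.67% of all probe sets were called higher, and all 11 in MtlDNP than in Mtl, where 5.91% were. Nothing is read from these counts, since the same differences chose the genes. The SD between the 2 arrays of a condition had a median of 0.134 over the 11 genes, near the 0.167 of all probe sets.

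Of the mapped probe sets, 545 were at least 1 higher with DNP in both sugars. The larger of their 2 AC differences was under 0.25 for the 11 genes, 0.25 to 0.5 for 21, 0.5 to 1 for 187 and at least 1 for 326, with a median of 1.13. The 11 genes are 2.02% of the 545. Within a sugar, the DNP difference and the AC difference share their 2 air arrays.

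**Figure D2:**
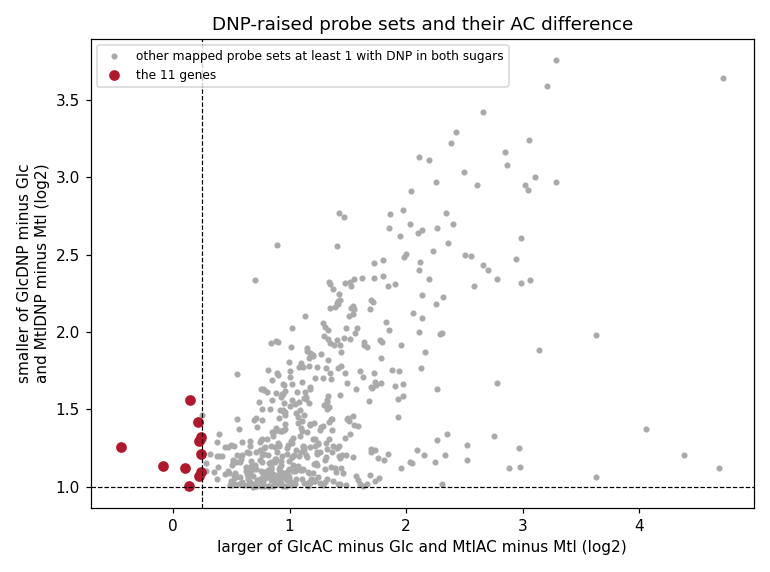
The smaller of the 2 DNP differences (vertical, log2) against the larger of the 2 AC differences (horizontal, log2) for the mapped probe sets at least 1 higher with DNP in both sugars. Dashed lines mark the thresholds of 1 and 0.25. The 11 genes form the left edge of a cloud of 545 points whose AC difference has a median of 1.13, and only LOC4326578 and LOC4331617 lie below 0.

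The edges of the set were close on both thresholds. Just inside the DNP threshold the smaller DNP difference was 1.01 for LOC4343579, 1.07 for LOC4336904 and 1.09 for LOC4346566. Just outside it was 0.99 for NH3 (also NPR3), 0.97 for OsRSH3 and 0.95 for LOC9266372. Just inside the AC threshold the larger AC difference was 0.24 for LOC4329444, LOC4346566 and LOC4337359. Just outside it was 0.25 for LOC4343616, 0.26 for LOC4344705 and 0.28 for LOC4344010.

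The deposited values decide which genes belong. When the 12 arrays were brought to 1 common distribution by quantile normalization, 10 genes passed the rule and 4 of the 11 were among them: AGO2, LOC4326578, LOC4343579 and LOC4329137. The other 7 missed the AC threshold, with larger AC differences of 0.25 to 0.52, while the smaller DNP difference of all 11 stayed at 1.10 or more. Leaving out 1 array at a time gave sets of 7 to 15 genes, and LOC4326578 and LOC4331617 were in the set each time. AGO2 left it when MtlAC replicate 2 or Mtl replicate 2 was left out.

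The rule did not use the difference between glucose and mannitol within an environment. That difference is not free of the rule, since it uses the same arrays and each gene had to pass in both sugars. No gene of the 11 was called different between glucose and mannitol in any environment, by limma at an adjusted p under 0.05 and a log2 difference of at least 1. Of all probe sets, 0.0136% were called for GlcDNP against MtlDNP (0.0109% higher and 0.00273% lower), 2.66% for GlcAC against MtlAC (2.27% higher and 0.393% lower) and 2.0% for Glc against Mtl (0.469% higher and 1.53% lower). A count of 0 among 11 is near these shares. At an unadjusted p under 0.05 there were 0, 1 and 2 of the 11 in these 3 comparisons, against 2622, 6177 and 4812 of all 36643 probe sets. The 95% interval of the sugar difference lay within -1 and 1 for all 11 genes with DNP, for 10 under AC and for 10 in air.

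AGO2 had sugar differences of -0.09 with DNP (95% interval -0.68 to 0.51), -0.31 under AC (-0.90 to 0.28) and -0.06 in air (-0.65 to 0.53). LOC4331617 was lower with glucose in all 3 environments. Its difference was -0.29 with DNP (limma adjusted p = 0.775), -0.85 ± 0.18 under AC (adjusted p = 0.0271) and -0.52 ± 0.18 in air (adjusted p = 0.209). Under AC its 2 arrays with glucose, 6.19 and 6.38, lay below the 2 with mannitol, 6.99 and 7.29, a 1.81-fold difference that passed the adjusted p and missed the size of 1. It passed both after quantile normalization, at -1.17 (adjusted p = 0.0103). LOC4326578 was higher with glucose in air by 0.52 ± 0.22 (adjusted p = 0.365), and stood at -0.26 with DNP and 0.00 under AC. The sugar differences of the other 8 genes lay between -0.31 and 0.34 over the 3 environments. In 2 of the 11 genes, LOC4326578 and LOC4336283, the glucose arrays lay all above the mannitol arrays in 1 environment and all below them in another, as in 19.6% of all probe sets. The median over the 11 genes was -0.10 with DNP, -0.12 under AC and -0.05 in air, beside 0.00, -0.04 and 0.04 over all probe sets.

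**Figure D3:**
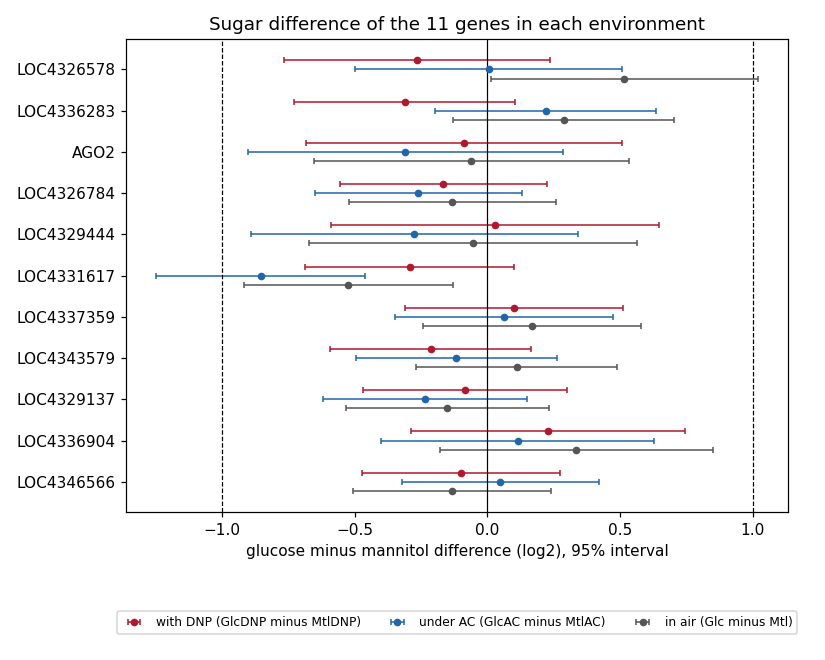
Glucose minus mannitol difference (log2) of the 11 genes with DNP, under AC and in air, as limma estimates from 2 arrays per condition with 95% intervals. Dashed lines mark -1 and 1. The interval of LOC4331617 lies below 0 under AC, at -1.25 to -0.46, and in air, and that of LOC4326578 lies just above 0 in air.

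AGO2 is 1 of 14 Argonaute genes that could be named on the array, a family listed after the values of AGO2 were known. No other Argonaute gene met the rule. Of the other 13, limma called none higher and 2 lower in GlcDNP than in Glc, 1 higher and none lower in MtlDNP than in Mtl, 1 lower in GlcAC than in Glc and none in MtlAC than in Mtl. Their medians were 0.02 and -0.13 with DNP and -0.12 and -0.15 under AC. Of all probe sets, 9.28% and 10.4% were called lower with DNP and 3.25% and 8.65% lower under AC. The shares called higher were 4.67% and 5.91% with DNP and 2.01% and 3.56% under AC.

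AGO3 (LOC4336992) is the next gene to AGO2 in the RefSeq gene order, and its levels stood higher with DNP and under AC. It had 3.49 and 4.16 in GlcDNP and 4.46 and 4.07 in MtlDNP, against 4.29 and 3.96 in GlcAC, 3.87 and 4.09 in MtlAC, 3.45 and 2.42 in Glc and 3.38 and 2.94 in Mtl. Every AC array lay above every air array, and so did every DNP array, although 1 GlcDNP array, at 3.49, was next to the higher Glc array, at 3.45. The called difference was MtlDNP minus Mtl, 1.11 ± 0.35 (limma adjusted p = 0.0366), a call lost when any 1 of these 4 arrays was left out (adjusted p of 0.0579 to 0.18). GlcDNP minus Glc was 0.89 (adjusted p = 0.0932), GlcAC minus Glc 1.19 (adjusted p = 0.0698) and MtlAC minus Mtl 0.82 (adjusted p = 0.115). Without Glc replicate 1, the higher of the 2 Glc arrays, both glucose differences were called, at 1.40 with DNP and 1.70 under AC, and without Glc replicate 2 they were 0.38 and 0.68 with no call. AGO2 and AGO3 are related sequences, and cross-hybridization of their probes was not tested.

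The Argonaute genes called lower with DNP were MEAL1 and OsPNH1. MEAL1 (also MEL1), known in rice for its role in germ cells, had 4.91 and 4.63 in GlcDNP and 4.36 and 4.93 in GlcAC, against 6.43 and 7.10 in Glc. It fell by 2.00 ± 0.34 with DNP (limma adjusted p = 0.00223) and by 2.12 ± 0.34 under AC (adjusted p = 0.0046) on glucose, and stood at -0.26 and -0.32 on mannitol. OsPNH1 stood at -1.07 ± 0.32 in GlcDNP minus Glc (adjusted p = 0.0374), and lost the call in 6 of the alternatives, among them those without either Glc array. AGO18, known in rice for antiviral defence, stood at 0.88 in GlcDNP minus Glc (adjusted p = 0.00677) and 0.98 in GlcAC minus Glc (adjusted p = 0.0104), both under the size of 1. AGO1, AGO1A and AGO1D, of the subfamily that carries microRNAs, and AGO4A, of the subfamily known for RNA-directed DNA methylation, stayed within 0.35 of air in all 4 differences. Other members of these subfamilies lay further from air without a call: AGO1B stood at -0.55 in MtlDNP minus Mtl and -0.54 in MtlAC minus Mtl, and AGO4B at -0.61 and -0.60 in the same differences.

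**Figure D4:**
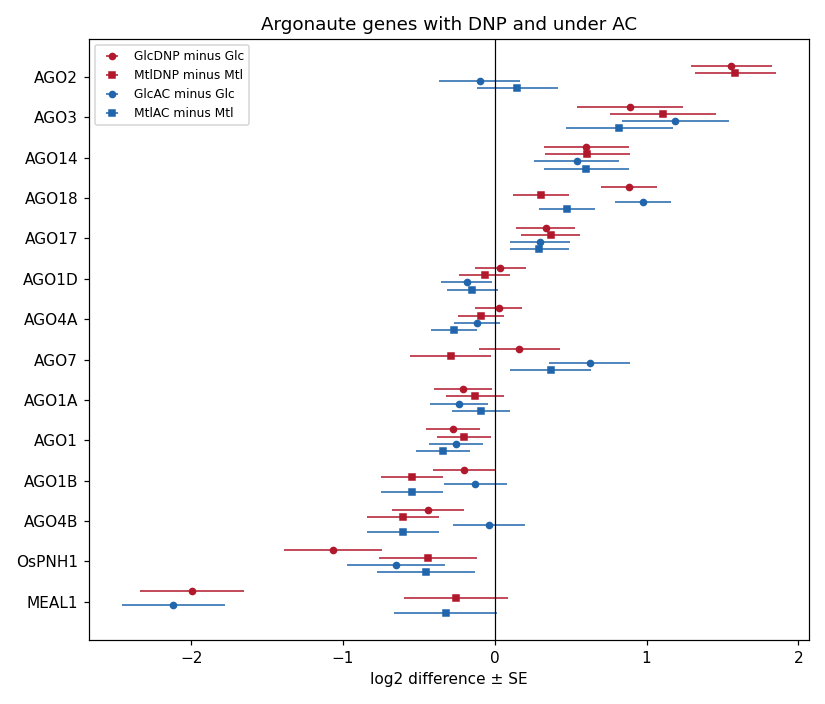
Log2 differences of the 14 Argonaute genes, as GlcDNP minus Glc and MtlDNP minus Mtl (red) and GlcAC minus Glc and MtlAC minus Mtl (blue), with SE from limma. AGO2 has both DNP differences above 1.5 and both AC differences near 0, and AGO3 has all 4 between 0.82 and 1.19.

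Other small RNA genes, also listed afterwards, were Dicer-like, RNA-dependent RNA polymerase and double-stranded RNA-binding genes and OsSGS3. None of these 14 was called higher with DNP or under AC by limma, while 2 were called lower in GlcDNP, 1 in MtlDNP and 1 in MtlAC. Of all probe sets, 9.28% were called lower in GlcDNP, 10.4% in MtlDNP, 3.25% in GlcAC and 8.65% in MtlAC. The shares called higher were 4.67%, 5.91%, 2.01% and 3.56%. The counts among the 14 are near these shares. Their medians were -0.29 with glucose and -0.29 with mannitol for DNP, and -0.19 and -0.20 for AC. The double-stranded RNA-binding gene DRB3 stood at 0.71 (adjusted p = 0.0406) and 0.55 with DNP and at -0.11 and 0.00 under AC, under the size of 1. The Dicer-like gene DCL2A stood at 0.40 (limma adjusted p = 0.151) and 0.65 (adjusted p = 0.0265) with DNP, both under the size of 1. Under AC it stood at 0.11 and -0.01. The polymerase gene OsRDR2 fell by 1.45 in GlcDNP against Glc and stood at 0.02 in MtlDNP minus Mtl. The other genes called lower were DRB5, at -1.43 in GlcDNP minus Glc, and DRB2 (LOC4337826), at -1.02 in MtlDNP minus Mtl. DCL4 was called lower in MtlAC minus Mtl, at -1.21, and stood at -0.30 and -0.80 with DNP.

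Genes just outside the thresholds with a usable symbol were taken from the 25 mapped probe sets with a smaller DNP difference of 0.75 to 1 and the 21 with a larger AC difference of 0.25 to 0.5, windows set after the values were seen, and 7 had a symbol. NH3, a relative of the salicylic acid receptor gene NPR1, had 4.26 and 3.89 in GlcDNP and 3.89 and 3.94 in MtlDNP, against 2.04 and 2.46 in GlcAC, 2.43 and 3.04 in MtlAC, 2.52 and 2.66 in Glc and 2.95 and 2.91 in Mtl. Its DNP arrays lay above all others, and its AC means lay 0.34 and 0.19 under air. OsRSH3, a homologue of the bacterial enzymes that make the alarmone ppGpp, had 5.83 and 5.63 in GlcDNP and 5.95 and 6.00 in MtlDNP, against 4.70 and 4.50 in GlcAC, 4.82 and 4.92 in MtlAC, 4.71 and 4.82 in Glc and 4.94 and 4.68 in Mtl. It, too, had no overlap between DNP arrays and the rest. All 4 DNP arrays lay above the other 8 in 4.53% of all probe sets. The window used these differences, so nothing is read from the separation in NH3 or OsRSH3.

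ABCG44 (also PDR17), a membrane transporter gene of the pleiotropic drug resistance group, had DNP differences of 0.88 and 1.01 and AC differences of -0.01 and 0.07. The low phytic acid gene Lpa1 had 0.98 and 0.93 with DNP and 0.19 and 0.14 under AC. OsNrx2, a nucleoredoxin gene of the thioredoxin superfamily, had 0.94 and 1.36 with DNP, and its MtlAC arrays were far apart at 2.93 and 1.81. The formin gene FH16 and ta4 met the DNP threshold, at 1.20 and 1.35 for FH16 and 1.66 and 1.29 for ta4, and missed the AC threshold with glucose at 0.38 each. In ta4, MtlAC minus Mtl was -0.37.

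None of the 11 genes belongs to any of the 18 gene lists made for this tissue and these treatments, and 10 of the 11 have no symbol by which a list could hold them. The alternative oxidase gene AOX1, whose enzyme lets electrons pass to oxygen without pumping protons, was the single named gene of the mitochondrial stress list. With DNP it stood at 0.52 with glucose (limma adjusted p = 0.0772) and 0.80 with mannitol (adjusted p = 0.012), both under the size of 1. It fell under AC by 1.44 with glucose (limma adjusted p = 0.00168) and by 1.18 with mannitol (adjusted p = 0.00204). The list counts that follow stand beside 4.67% of all probe sets called higher and 9.28% lower in GlcDNP, 5.91% and 10.4% in MtlDNP, 2.01% and 3.25% in GlcAC, and 3.56% and 8.65% in MtlAC. Of 55 detoxification genes, 4 were called higher and 3 lower in GlcDNP, and 6 higher and 6 lower in MtlDNP, with medians of 0.12 and 0.09. Under AC 6 were higher and 2 lower with glucose, and 6 higher and 5 lower with mannitol. The transporter gene ABCG53 had the largest DNP difference of the list with glucose, 1.96, and stood at 1.44 with mannitol, with AC differences of 1.35 with glucose and 0.95, not called, with mannitol. ABCG35, another such gene, had the largest with mannitol, 2.10, and stood at 1.27 with glucose, with AC differences of 1.31 with glucose and 2.52 with mannitol. The lowest DNP differences of the list were -1.63 with glucose and -2.07 with mannitol. C6-oxidase stood at -1.39 with glucose and -2.07 with mannitol, and GST-II at -1.53 and -1.67, all called lower. Of 47 antioxidant genes, 2 were called higher and 12 lower in GlcDNP and 4 higher and 13 lower in MtlDNP, and under AC 4 were higher and 3 lower with glucose and 4 higher and 12 lower with mannitol. Of 21 genes of the anaerobic response, 1 was higher and 4 lower in GlcDNP, none higher and 4 lower in MtlDNP, and 2 higher and 1 lower under AC with each sugar. Not all 18 lists are given here. Of 63 heat shock genes, 25 were called higher and 7 lower in GlcDNP, and 23 higher and 3 lower in MtlDNP. Under AC 21 were higher and 1 lower with glucose, and 23 higher and 3 lower with mannitol. Of 13 LEA and dehydrin genes, 10 were higher and 2 lower in GlcDNP, and 8 higher and 2 lower in MtlDNP. Under AC 3 were higher with glucose and 7 with mannitol, and none lower.

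The 11 genes do not sit together in the genome. No 2 of them are neighbours among protein-coding genes in the RefSeq order. Of their 22 immediate neighbours 18 were measured. In GlcDNP 1 of the 18 was called higher and 1 lower, and in MtlDNP 2 were called higher and none lower, beside 4.67% and 9.28% of all probe sets in GlcDNP and 5.91% and 10.4% in MtlDNP. Under AC none was called higher, and 1 was called lower with glucose and 2 with mannitol. Of all probe sets, 2.01% were called higher and 3.25% lower in GlcAC, and 3.56% higher and 8.65% lower in MtlAC. Both genes beside AGO2 were the 2 called in MtlDNP: AGO3, above, and LOC4336990, at 1.31 ± 0.23 (limma adjusted p = 0.00229) with mannitol and 0.56 with glucose. LOC4336903, beside LOC4336904, was higher in GlcDNP by 1.40 ± 0.17. GLU3, beside LOC4336283, fell by 1.52 in GlcDNP against Glc, and under AC by 1.27 with glucose (limma adjusted p = 0.00742) and by 1.36 with mannitol (adjusted p = 0.00226).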

How the data were processed

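The authors deposited 1 table of log2 expression values for 36643 probe sets and 12 arrays. Per the labels, Expression Console made them by RMA from core exons, and the submitters' processing notes list Affymetrix Power Tools. No source used here gives a version, genome build or annotation. The design text calls the material saliva in 1 place, while all sample labels say embryo. The log base was taken as 2 from the range of -0.49 to 13.12. Condition means and differences were computed here. Probe sets were named through the platform's table and the RefSeq gene table (assembly ASM3414082v1), used for names and gene order only: 24161 have 1 gene, 90 several and 12392 are unnamed here, and 2745 have a usable symbol.

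All probe sets were fitted with limma 3.58.1 (R 4.3.3), with 1 coefficient per condition and no replicate block (6 residual and 3.82 prior degrees of freedom), Benjamini-Hochberg adjustment over all probe sets, and a size of at least 1. No low values were filtered out, so all 11 genes were tested. The procedure was tested on simulated data. Genes and lists were chosen with earlier results of these data known. The rule for naming took the member with a symbol, the 8 members with the largest mean DNP difference and the 3 genes on either side of each threshold. LOC4329137, the genes named from lists and windows, the Argonaute and other small RNA genes and the neighbours were named after their values were seen. Alternatives were quantile normalization, limma with trend and robust, the 4 compared arrays alone, a filter on probe sets in the lowest 25 percent of row means, a replicate block, each array left out, and other thresholds. The number of arrays limits the precision. Promoter motifs and protein sequences were not analysed here.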

Additional observations from a re-analysis of the deposited data

Results flagged for a closer look

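In 2 of the 11 genes the 2 glucose arrays lay entirely above the 2 mannitol arrays in 1 environment and entirely below them in another. Of all probe sets 19.6% did the same, so 2 of 11 is near that share and no result about these genes. For LOC4326578 the glucose minus mannitol difference was -0.26 with DNP and 0.52 in air. For LOC4336283 it was -0.31 with DNP and 0.22 under AC. The difference between environments was not tested, because the interaction of sugar with DNP is made of the same differences that chose the genes. None of these 4 values passed the test on its own.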

How the results depend on the processing

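The number of genes that met the rule was 11 with the deposited values, 10 after quantile normalization and 11 with the lowest probe sets left out. It was 1 with a DNP threshold of 1.5, 2 with an AC threshold of 0, 32 with an AC threshold of 0.5 and 36 with a DNP threshold of 0.75, the last chosen after seeing the data. Leaving out each array gave 7 to 15, the 7 without MtlAC replicate 2. The count of genes called for sugar was 0 in every comparison and alternative except under AC after quantile normalization, where 1, LOC4331617, was called lower with glucose. Of 561 values of single genes' sugar differences under the alternatives that 1 was the only change of call, and 21 differences without a call had the other sign. With 1 array left out the median sugar difference in air ranged from -0.054 to 0.12 (0.12 without Glc replicate 1 and 0.096 without Mtl replicate 2). With a replicate block, 0 genes were called for sugar. The counts called higher with DNP, which the choice of the genes fixes, were 11 in each sugar with the block and 10 to 11 with 1 array left out. Same-numbered arrays correlated at -0.02 to 0.09 in their deviations from condition means over 15 pairs of conditions. Such a correlation over all probe sets cannot show whether same-numbered arrays shared a batch. Among 876 values for the other Argonaute genes, 10 lost a call, 5 gained one and none reversed. Quantile normalization moved the median DNP difference of all probe sets to 0.05 with glucose and 0.07 with mannitol, against 0.10 and 0.15 in the deposited values. The files give no detection calls, which limits what can be said of dim probe sets. The cause of these changes was not tested.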

Other observations

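A further 7 probe sets met the 4 thresholds but are unnamed here. Probe sets 16304308 and 16304310 had larger DNP differences in both sugars than any of the 11 genes had as their smaller one. Probe set 16304308 stood at means of 5.04 in GlcDNP and 6.18 in MtlDNP, against 2.95 in GlcAC, 4.26 in MtlAC, 2.91 in Glc and 4.21 in Mtl. Its DNP differences were 2.13 and 1.97 ± 0.62 (SE) and its AC differences 0.05 and 0.04. Its arrays were far apart, at 2.19 and 3.71 in GlcAC and 5.07 and 3.45 in MtlAC, and 1 MtlAC array lay above the lowest DNP array, at 4.90. Probe set 16304310 stood at 4.33 in GlcDNP and 4.64 in MtlDNP, against 2.16 in GlcAC, 2.26 in MtlAC, 2.57 in Glc and 2.66 in Mtl, with Glc arrays of 1.59 and 3.54.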
